A study of Mus musculus with 4 samples.

Results

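The genes described here are those of the insulin-like growth factor (IGF) system, namely the ligand gene Igf1, the receptor genes Igf1r and Igf2r, and the 7 binding protein genes Igfbp1 to Igfbp7. They were taken by gene symbol, and all 10 were found among the 54078 features of the expression table. RNA-seq had been performed on kidneys of adult male mice 3 days after bilateral ischemia/reperfusion (I/R) with 30 min of ischemia. The groups were WT mice, which are Apela flox/flox littermates without Cre (Cre-/-), and renal tubule-specific ApelaKsp KO mice, which are Apela flox/flox with Ksp-Cre, a Cre driven by the kidney-specific cadherin promoter in tubular epithelium. Apela encodes the peptide hormone ELA, a ligand of the receptor APJ, and both groups carry the floxed alleles and had the same surgery. The strain is labelled C57BL/6 x 129S4/SvJae. Each group had 2 sequenced pools of polyA RNA, each pool from 3 mice, and sham-operated mice were not analysed here, so a change caused by the surgery itself could not be read.

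IGF1 signals through the IGF1 receptor, a tyrosine kinase that feeds the PI3K-AKT-mTOR pathway, whereas the receptor encoded by Igf2r has no kinase and carries IGF2 and mannose 6-phosphate-tagged enzymes to lysosomes. IGFBP1 to IGFBP6 bind IGFs with high affinity and set how much ligand reaches the receptor, while IGFBP7 binds IGFs weakly and is secreted in quantity by vascular and injured tubular cells. In the kidney, IGF1 raises renal blood flow and supports tubular growth, much of it arriving from the liver through the circulation. Igfbp1 transcription is known to be held down by insulin through FOXO factors, which was not examined in these kidneys.

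Between 16045724 and 16927742 reads per pool fell on genes, 5.20% to 6.45% of them on mitochondrial genes. Apela, the targeted gene, was at 5.27 and 4.57 FPKM (fragments per kilobase of gene, scaled by the authors with 1 factor per library) in the WT pools and at 0.536 and 0.245 FPKM in the KO pools, so the values followed the labels. Kidney markers were abundant, with 8 proximal tubule markers summing to 1170 to 2312 FPKM. The series' design text names adipose tissue as the source, but Adipoq, the adiponectin gene of adipocytes, had no reads in 3 pools and 0.268 FPKM in the second KO pool, Ucp1 of brown fat was at 0 in every pool, and of 6 adipocyte markers only Cidec, a lipid droplet gene, passed the filter on low values. Cidec was higher in both KO pools, at 7.92 and 2.79 FPKM against 1.37 and 0.282 FPKM in WT (log2 fold change 2.12, limma adjusted p = 0.785). Plin1, another lipid droplet gene, was at 0.347 and 0.119 FPKM in KO against 0.0535 and 0.0125 FPKM in WT. These values rest on only 27 and 9 reads against 4 and 1, and Plin1 was not tested. In limma on log2(FPKM + 0.5), 0 of the 15414 genes tested (0%) had a Benjamini-Hochberg adjusted p under 0.05, Apela included (adjusted p = 0.466, the lowest of all genes), while the unadjusted p was under 0.05 for 974 (6.32%). An alternative fit of the recovered reads with voom weights also gave 0 genes, and 970 before adjustment. These p-values measure the spread between pools of mice, and with 2 pools a group an exact permutation test of a single gene cannot go below 0.333.

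At day 3 after I/R the kidneys held the binding protein genes at widely different levels, from Igfbp7, one of the most abundant transcripts of the organ, to Igfbp2, which was at the limit of detection. By mean FPKM over the 4 pools the order was Igfbp7, Igfbp4, Igfbp3, Igfbp5, Igf2r, Igf1r, Igfbp1, Igfbp6, Igf1 and Igfbp2. Igfbp7 ranked 22nd and Igfbp4 175th among the 27251 features with any read, while Igf1 ranked 14280th. Among neighbours in this order, the ranges over the pools overlapped for Igfbp3 and Igfbp5, although Igfbp3 was the higher in each single pool, and for Igfbp6 and Igf1. Of the 10 genes 9 passed the filter of a mean of at least 0.5 FPKM, and 0 of these had an adjusted p under 0.05. The FPKM of Igf1 and Igfbp5 were lower, and that of Igf2r higher, in both KO pools than in both WT pools. These are 3 of 9 genes (33.3%) with groups that did not overlap, against 37.8% of all genes tested. In bulk RNA, fewer cells of a type and less RNA per cell cannot be told apart.

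**Figure D1:**
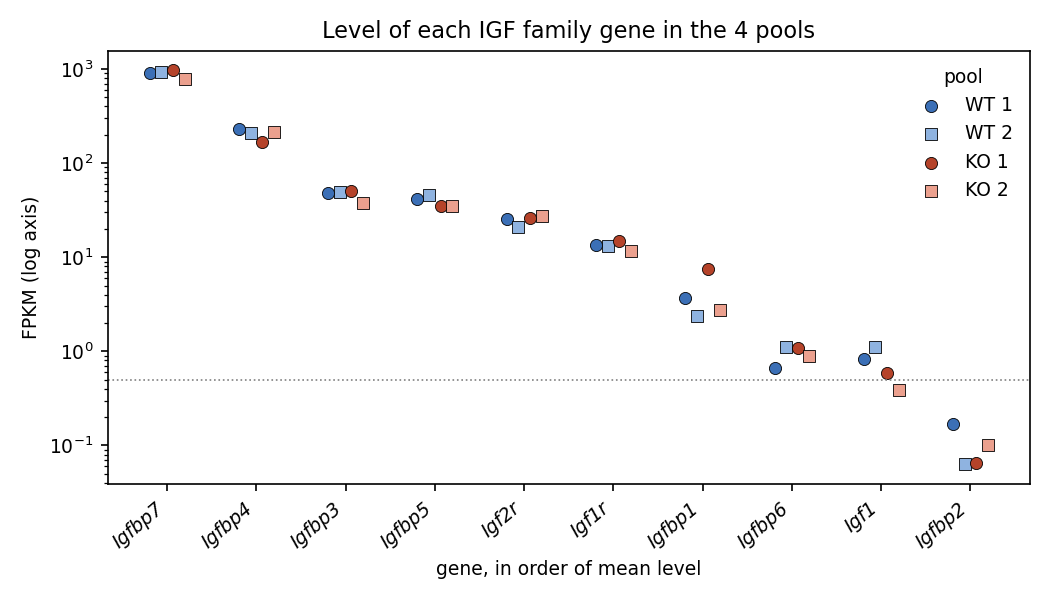
FPKM of the 10 IGF family genes on a log axis, 1 point per pool (2 WT, 2 KO), in order of mean level; the dotted line is the filter of 0.5 FPKM. Igfbp7 lies between 776 and 966 FPKM in every pool, Igfbp2 at 0.168 FPKM or below, and Igfbp1 has 1 KO pool at 7.49 FPKM above its other 3.

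Igf1 (chr10:87858265-87937042, + strand, GRCm38), the only ligand of the family with reads above the detection limit here, was at 0.836 and 1.12 FPKM in the WT pools and at 0.585 and 0.392 FPKM in the KO pools, from 133, 191, 97 and 63 reads. Both KO pools were below both WT pools, as for 18.1% of all genes tested. The KO mean of 0.489 ± 0.137 FPKM (SD, n = 2) was 0.499 of the WT mean of 0.978 ± 0.202 FPKM (SD, n = 2). In limma the log2 fold change of FPKM + 0.5 was -0.58 (SE 0.25, 95% interval -1.24 to 0.074), with an unadjusted p of 0.071 and a Benjamini-Hochberg adjusted p of 0.797. The added 0.5 is close to the level of this gene and pulls the fold towards 0, and a pseudocount of 0.1 gave -0.88 and the voom fit of reads -1.01. Igf2, the gene of the other IGF, had 1, 1, 0 and 0 reads in the 4 pools, and Ins1 and Ins2, the mouse insulin genes, had 0 in all.

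Igf1 is transcribed by several cell types, macrophages and interstitial cells among them, and the marker sums of these cells differed between pools. The 8 macrophage markers summed to 184 and 457 FPKM in the WT pools and to 225 and 216 FPKM in the KO pools. Of the 8, 7 were lower in KO and 2 of these (25%) had no overlap, against 18.1% of all genes. These were the complement genes C1qb, at 42.0 and 103 FPKM in WT and 41.4 and 33.9 FPKM in KO, and C1qc, at 20.1 and 42.4 FPKM against 18.6 and 14.9 FPKM. Both ranked the 4 pools as Igf1 did, and the other 6 did not. The 8 fibroblast and pericyte markers summed to 142 and 281 FPKM in WT and to 171 and 191 FPKM in KO, most of it from collagen genes, with 3 of 8 higher and 5 lower in KO. The 2 lower ones without overlap (25%, against 18.1% of all genes) were the proteoglycan genes Dcn, at 4.18 and 6.24 FPKM in WT and 3.39 and 2.25 FPKM in KO (log2 fold change -0.78, limma adjusted p = 0.785), and Lum, at 0.508 and 0.997 FPKM against 0.317 and 0.226 FPKM. They too ranked the pools as Igf1 did, and the other 6 did not, with the first WT pool lowest of all 4 for Pdgfra, Pdgfrb and the 3 collagen genes. In both lists the second WT pool was highest, as it was for Igf1, and without it the log2 fold change of Igf1 was -0.44, the macrophage median log2 fold change went from -0.65 to 0.012 and the fibroblast and pericyte median from -0.17 to 0.30. The part of these cells in the Igf1 values was not tested.

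The 2 receptor genes were expressed well above the ligand gene. Igf1r (chr7:67952827-68233668, + strand) was at 13.5 and 13.2 FPKM in WT and at 14.8 and 11.6 FPKM in KO. The KO pools lay on either side of the WT pools, and the log2 fold change was -0.027 (SE 0.15, 95% interval -0.43 to 0.38, limma adjusted p = 0.981). Igf1r FPKM was 16.1 and 11.8 times that of Igf1 in the WT pools and 25.3 and 29.5 times in the KO pools, while Igf1r itself overlapped between groups. Insr, the insulin receptor gene, was at 10.5, 8.46, 10.9 and 9.57 FPKM (WT, WT, KO, KO), and Igf1r was 1.21 to 1.56 times this level in every pool. Insrr, an orphan receptor of the same family that senses alkaline pH in the kidney, was at 3.83 and 3.31 FPKM in WT and 1.59 and 3.01 FPKM in KO. Its KO pools were both lower, with a log2 fold change of -0.58 (SE 0.28, limma adjusted p = 0.797).

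Igf2r (chr17:12682406-12769664, - strand) was at 25.6 and 21.0 FPKM in WT and at 25.9 and 27.1 FPKM in KO. Both KO pools exceeded both WT pools, as for 19.7% of all genes tested, but the first pool of each group differed by little. The log2 fold change was 0.19 (SE 0.14, 95% interval -0.18 to 0.56), with an unadjusted p of 0.238 and a Benjamini-Hochberg adjusted p of 0.831 in limma, and it was 0.051 without the second WT pool and 0.33 without the first. In mice Igf2r is imprinted, and the paternal allele is silenced by Airn, a long noncoding RNA that starts inside Igf2r and runs in the opposite direction over 28354 bases of it. Airn, looked up after the values of Igf2r were seen, was at 1.55 and 1.30 FPKM in WT and at 0.984 and 0.945 FPKM in KO, with a log2 fold change of -0.39 (SE 0.18, limma adjusted p = 0.797). The KO pools were thus lower for Airn where they were higher for Igf2r. Neither difference passed the test, and it is not stated whether reads were counted by strand, without which reads of Igf2r and Airn cannot be told apart where they overlap.

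**Figure D2:**
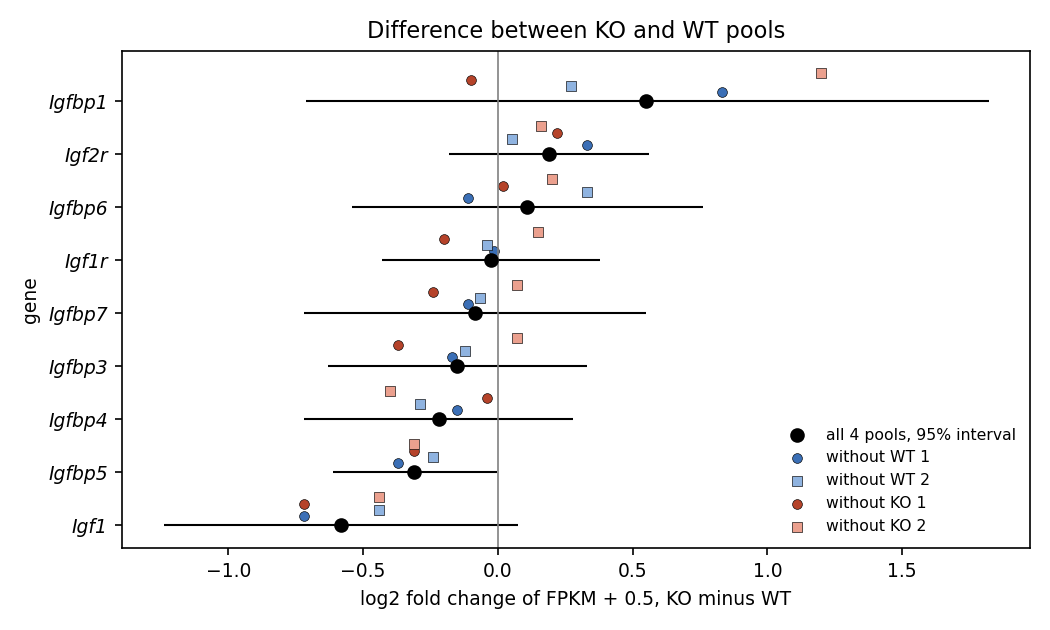
Log2 fold change of FPKM + 0.5, KO minus WT, of the 9 genes tested, with the 95% interval from limma (black) and, above each, the value when 1 pool is left out (coloured). All 9 intervals but that of Igfbp5 (-0.61 to -0.0021) hold 0, and Igfbp1 moves between -0.098 and 1.20 with the pool left out.

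Igfbp7 and Igfbp4 made up most of the binding protein RNA. Igfbp7 (chr5:77349240-77408041, - strand) was at 906 and 933 FPKM in WT and at 966 and 776 FPKM in KO, with overlapping groups and a log2 fold change of -0.086 (SE 0.24, 95% interval -0.72 to 0.55, limma adjusted p = 0.958). It held 73.6%, 75.2%, 78.7% and 72.8% of the summed Igfbp FPKM in the pools WT 1, WT 2, KO 1 and KO 2. IGFBP7 is known as a urinary marker of tubular stress, but these are whole-kidney transcript levels with no sham group. Of 7 injured tubule markers 3 were higher and 4 lower in KO. Among them, 3 had an unadjusted limma p under 0.05, against 6.32% of all genes, in opposite directions and with adjusted p of 0.545 or more. Lcn2, a secreted injury marker, was at 133 and 95.2 FPKM in WT and 249 and 273 FPKM in KO (log2 fold change 1.21), and Krt20, a keratin, at 35.6 and 36.8 FPKM against 60.0 and 61.0 FPKM (0.73). Vcam1, an adhesion molecule, was at 14.6 and 31.0 FPKM in WT and 10.5 and 2.59 FPKM in KO (-1.91). Havcr1, also on the list, overlapped between groups, at 210 and 393 FPKM in WT and 249 and 105 FPKM in KO (-0.83). The part of tubular injury in the Igfbp7 and Igfbp1 values was not tested. Igfbp4 (chr11:99041244-99054392, + strand), whose protein inhibits IGF action until it is cleaved by the protease PAPP-A, was at 230 and 209 FPKM in WT and at 166 and 214 FPKM in KO. The first KO pool stood below the other 3, and the log2 fold change was -0.22 (SE 0.19, 95% interval -0.72 to 0.28, limma adjusted p = 0.854). It moved to -0.039 without the first KO pool and to -0.40 without the second. Quantile normalization gave -0.37 (limma unadjusted p = 0.0787 against 0.306 in the main fit, adjusted p = 0.814). The share of Igfbp4 in the summed Igfbp FPKM was 18.7% and 16.9% in WT and 13.5% and 20.0% in KO. The proximal tubule marker sum was also lowest in the first KO pool (1170 FPKM, against 1751 to 2312 FPKM in the others), and its part in the Igfbp4 values was not tested. Of the 8 markers 7 were lower in KO, 5 of them without overlap, against 18.1% of all genes tested. Slc22a6 was higher, also without overlap, at 233 and 141 FPKM in WT and 236 and 383 FPKM in KO (log2 fold change 0.73).

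Igfbp3 and Igfbp5 were next in level, with 3.52% to 4.16% and 2.88% to 3.69% of the summed Igfbp FPKM. Igfbp3 (chr11:7206086-7213923, - strand), the main carrier of circulating IGF1 and in the kidney an endothelial product, was at 47.7 and 49.4 FPKM in WT and at 51.0 and 37.5 FPKM in KO. The groups overlapped, with a log2 fold change of -0.15 (SE 0.18, 95% interval -0.63 to 0.33, limma adjusted p = 0.891). The 8 endothelial markers summed to 194 and 226 FPKM in WT and to 268 and 285 FPKM in KO. All 8 were higher in KO, 4 of them without overlap, against 19.7% of all genes tested, and their part in the Igfbp3 values was not tested. Plvap, a gene of fenestrated endothelium, made up much of the sums, at 103 and 110 FPKM in WT and 161 and 152 FPKM in KO, whereas Pecam1, Cdh5, Emcn and Eng were higher in the second WT pool than in the first KO pool. The median log2 fold change of the list was 0.22, and 0.05 without the first WT pool. Igfbp5 (chr1:72857932-72874884, - strand), which binds extracellular matrix and is made by mesenchymal and tubular cells, was at 41.9 and 45.8 FPKM in WT and at 35.4 and 35.3 FPKM in KO. Both KO pools were lower and nearly equal, and the KO mean of 35.4 ± 0.0425 FPKM (SD, n = 2) was 0.806 of the WT mean of 43.9 ± 2.77 FPKM (SD, n = 2). The log2 fold change was -0.31 (SE 0.12, 95% interval -0.61 to -0.0021). In limma, Igfbp5 was the only member tested with an unadjusted p under 0.05, at 0.049, where 6.32% of all genes fell below this threshold. Its Benjamini-Hochberg adjusted p in limma was 0.785. The unadjusted p was above 0.05 in several alternative limma fits, at 0.0606 with voom weights, 0.0692 without a trend and 0.0938 with a replicate block. In the first 2 of these Igf1 was below it, at 0.0159 and 0.0301. The proximal tubule markers were also mostly lower in KO, and their part in the Igfbp5 values was not tested. In the pools' own spread it was the steadiest member, with a pooled SD of 0.064 on the log2 scale against a median of 0.16 over all genes tested.

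Igfbp2 and Igfbp6 were the scarce binding protein genes. Igfbp6 (chr15:102144362-102149511, + strand), whose protein prefers IGF2, was at 0.671 and 1.10 FPKM in WT and at 1.08 and 0.886 FPKM in KO, from 12 to 21 reads a pool. The groups overlapped and the log2 fold change was 0.11 (SE 0.25, 95% interval -0.54 to 0.76, limma adjusted p = 0.945). Igfbp2 (chr1:72824503-72852474, + strand) was at 0.168 and 0.0629 FPKM in WT and at 0.0647 and 0.10 FPKM in KO, from 5, 2, 2 and 3 reads. Its mean was under the filter of 0.5 FPKM, so Igfbp2 was not tested, and with a detection limit of 3 reads no fold is given. Igfbp2 and Igfbp5 are neighbours on chromosome 1, arranged tail to tail with 5457 bases between them and no other gene, and Igfbp5 was at 35.3 FPKM or more in every pool where Igfbp2 was at or near the limit of detection. Igfbp1 and Igfbp3 form a like pair on chromosome 11 with a gap of 3539 bases, and there Igfbp3 was 6.81 to 20.9 times the FPKM of Igfbp1.

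Igfbp1 (chr11:7197782-7202546, + strand), an acute regulator of free IGF1 that is raised by fasting and stress, varied more between pools than any other member tested. It was at 3.71 and 2.36 FPKM in WT and at 7.49 and 2.75 FPKM in KO, from 91, 62, 191 and 68 reads. The first KO pool was above the other 3 and the second KO pool lay between the WT pools, so the groups overlapped. The KO mean was 5.12 ± 3.35 FPKM (SD, n = 2) and the WT mean 3.04 ± 0.954 FPKM (SD, n = 2). The log2 fold change was 0.55 (SE 0.48, 95% interval -0.71 to 1.82, limma adjusted p = 0.854), and without the first KO pool it was -0.098. The first KO pool also had the lowest proximal tubule marker sum, whose part in the Igfbp1 values was not tested. On the scale of log2(FPKM + 0.5), the range over the 4 pools was 1.48 for Igfbp1. It was 0.32 to 0.86 for the other members tested, and the median over all genes tested was 0.40. The added 0.5 narrows this range for scarce genes such as Igf1. In FPKM the highest pool was 3.17 times the lowest for Igfbp1 and 2.86 times for Igf1.

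The sequence before the Igfbp1 start is shown because this gene varied most between pools and its promoter is the known site of its repression by insulin. Promoters came from RefSeq (GRCm38.p6), in which all 10 genes were matched by symbol, and the 250 bases before the RefSeq start were searched on both strands for CAAAACA or CAAAATA, the core of the insulin response element bound by FOXO factors. Igfbp1 had 2 matches, at 108 to 102 and 97 to 91 bases upstream, and the other 9 genes had 0. At least 1 match was held by 9.14% and at least 2 by 0.931% of 32851 promoters. As the Igfbp1 promoter is a known site of this repression, its matches were foreseen and are not a result of these data. The bases from 250 to 6 upstream of Igfbp1 (chr11:7197537-7197781, + strand, GRCm38.p6) are printed 5′ to 3′ with the matches in capitals, the second read from the opposite strand.
Igfbp1 upstream region: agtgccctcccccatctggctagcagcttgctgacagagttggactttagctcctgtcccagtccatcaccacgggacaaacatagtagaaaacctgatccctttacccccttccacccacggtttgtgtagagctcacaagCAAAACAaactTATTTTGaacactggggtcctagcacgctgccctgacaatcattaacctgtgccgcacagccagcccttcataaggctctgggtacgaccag
A match describes letters in this window and not binding. CACGTG, the E-box, occurred 2 times before Igf2r and in 1 of the windows before Igfbp2, against 6.02% of all promoters with at least 1, and TATAAA on the forward strand occurred once before Igfbp4, against 7.59%. The hypoxia element core, ACGTG or GCGTG, which the E-box contains, was held by 38.6% of promoters and by 7 of the 10 genes. Igfbp2 is counted here by 1 of its windows. Each core holds the letters CG, which occurred a median of 6 times per promoter. They occurred 42, 32, 27 and 26 times before Igf1r, Igfbp3, Igf2r and Igfbp7, so these shares are not of like composition. Igf1 and Igfbp1 held the core with 5 each, and Igfbp4, with 22, did not.

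The 3 genes whose pattern over the 4 pools was closest to that of Igfbp1, of 5058 with a mean of at least 10 FPKM, were Gpd2, Cdo1 and Agt. Likeness was the Euclidean distance between centred log2(FPKM + 0.5) values, at 0.255, 0.290 and 0.293, and is a description of 4 libraries. Gpd2, a mitochondrial glycerol-3-phosphate dehydrogenase, was at 9.78, 7.05, 20.5 and 9.58 FPKM. Cdo1, cysteine dioxygenase, was at 85.2, 49.4, 130 and 66.7 FPKM, and Agt, angiotensinogen, at 72.0, 42.9, 104 and 51.8 FPKM in the same order (WT, WT, KO, KO). Each was highest in the first KO pool and lowest in the second WT pool, as was Igfbp1. Hepatocytes are the main body source of IGFBP1, and the 4 hepatocyte markers summed to 68.3, 50.0, 55.9 and 59.8 FPKM. Of the 4, Serpina1a (17.6, 7.08, 27.9 and 7.83 FPKM) and Apoa1 (0.654, 0.0941, 3.29 and 0.249 FPKM) ranked the pools as Igfbp1 did, and Ttr and Alb, the albumin gene, did not. Alb was at 0.408 to 0.868 FPKM, and the part of hepatocyte RNA in the Igfbp1 values was not tested.

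**Figure D3:**
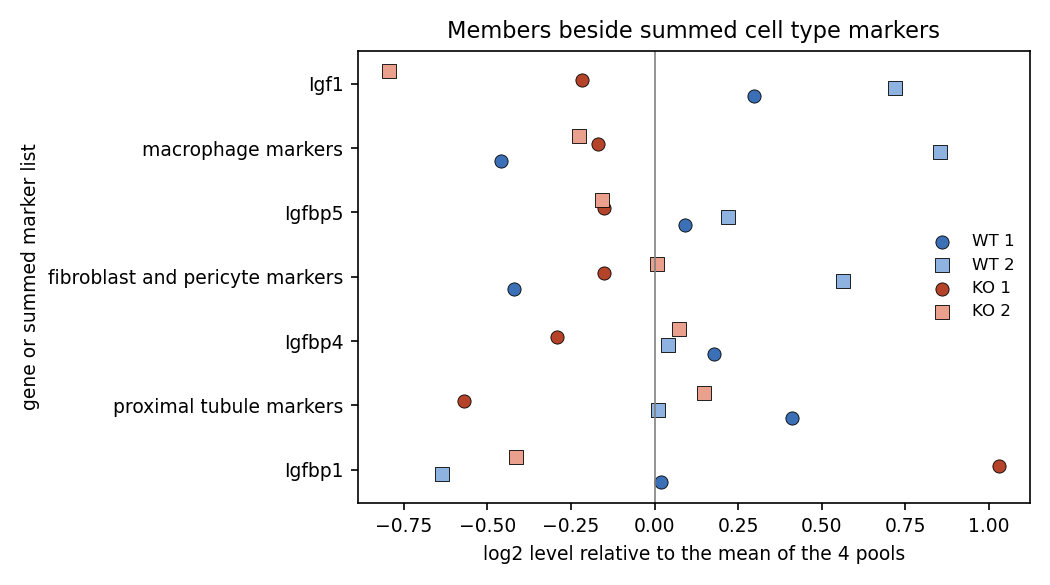
Log2 FPKM of 4 members and summed FPKM of 3 marker lists in each pool, each relative to its own mean over the 4 pools. The second WT pool is highest for Igf1, Igfbp5, macrophage markers and fibroblast and pericyte markers; the first KO pool is highest for Igfbp1 and lowest for Igfbp4 and proximal tubule markers.

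The other genes of the pathway differed between groups in both directions, with log2 fold changes from -0.58 to 0.52. Of 55 listed genes 45 passed the filter, of which 27 were higher and 18 lower in KO, 0 passed the adjusted threshold and 1, Cish, was under 0.05 before adjustment, against 6.32% of all genes. Groups did not overlap for 16 of the 45 (35.6%), against 37.8% of all genes tested, and the median log2 fold change was 0.028 against 0.0071 over all genes. For the 9 members tested the median was -0.086.

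Among genes that hold or release IGFs outside cells, Igfals, the acid-labile subunit of the circulating complex, was at 9.93 and 6.11 FPKM in WT and at 7.87 and 7.76 FPKM in KO. Pappa, the protease that cleaves IGFBP4, was at 1.36 and 1.42 FPKM in WT and at 1.66 and 1.42 FPKM in KO, and Pappa2, its homologue, fell under the filter with 14 to 28 reads a pool. Stc1 and Stc2, whose proteins inhibit these proteases, were both lower in KO. Stc1 was at 1.62 and 1.54 FPKM in WT and at 1.15 and 0.690 FPKM in KO (log2 fold change -0.57, SE 0.23, limma adjusted p = 0.786), and Stc2 at 0.962 and 1.06 FPKM against 0.682 and 0.690 FPKM (log2 fold change -0.35, limma adjusted p = 0.798). In neither case did the groups overlap, as for 18.1% of all genes tested on this side. Htra1, a protease that cleaves IGFBPs, was at 51.2 and 58.7 FPKM in WT and at 83.7 and 52.2 FPKM in KO, and Adamts1, an extracellular metalloproteinase, at 38.3 and 60.1 FPKM in WT and at 40.8 and 42.2 FPKM in KO, and both overlapped.

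Inside the cell the largest difference of the receptor adaptors was that of Irs2, a docking protein of the insulin and IGF1 receptors that is itself induced by FOXO factors. It was at 7.83 and 8.27 FPKM in WT and at 14.8 and 9.38 FPKM in KO, with both KO pools higher and a log2 fold change of 0.52 (SE 0.23, limma adjusted p = 0.797). The first KO pool was highest for Irs2, as for Igfbp1, but the other pools ranked differently for these genes. The groups overlapped for Igfbp1 and not for Irs2, and a shared regulation was not tested. Of the 6 adaptors tested 5 were higher, 3 of them without overlap, against 19.7% of all genes tested, and Grb10, named after its values were seen, an adaptor that inhibits these receptors, was lower without overlap, at 6.35 and 8.26 FPKM in WT and 6.25 and 5.52 FPKM in KO. In the PI3K-AKT-mTOR arm 11 of 18 genes were higher, led by Mtor, the growth kinase, at 26.1 and 18.6 FPKM in WT and at 28.6 and 27.3 FPKM in KO (log2 fold change 0.34). In the growth hormone arm 4 of 6 were lower, and Cish, a STAT5-induced inhibitor of growth hormone signalling, was at 7.72 and 6.10 FPKM in WT and at 4.77 and 5.25 FPKM in KO (log2 fold change -0.42, limma unadjusted p = 0.0456, adjusted p = 0.785). Igf2bp2, an RNA-binding protein named for Igf2 mRNA, was at 2.77 and 3.19 FPKM in WT and at 4.33 and 2.76 FPKM in KO (log2 fold change 0.19), and Ctgf, a matrix-associated growth factor with an IGFBP domain, was at 28.1 and 37.3 FPKM in WT and at 33.5 and 53.9 FPKM in KO (log2 fold change 0.39). For both genes the groups overlapped.

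**Figure D4:**
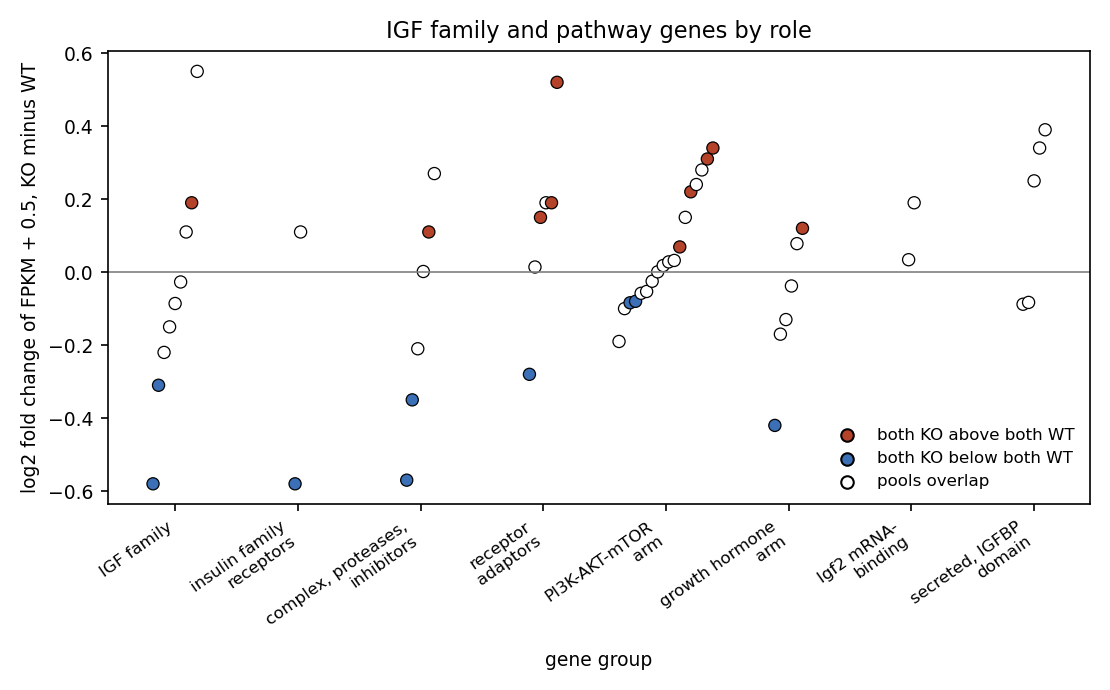
Log2 fold change of FPKM + 0.5, KO minus WT, of the 9 members tested and the 45 pathway genes tested, by role; filled points mark genes whose KO pools both lie above (red) or below (blue) both WT pools. Differences run from -0.58 to 0.55, and 3 of 9 members and 16 of 45 pathway genes have groups that do not overlap.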

How the data were processed

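The authors deposited FPKM per gene for 4 libraries with gene positions and lengths. The divisor behind the FPKM was below the reads on genes in 3 libraries and above them in the second WT library, so it holds a scaling between libraries. The submitters' processing notes name HISAT2 2.0.5 and mm10 (GRCm38.p6), and the counting tool and strand setting are not given in the sources used here. FPKM times gene length gave whole reads for 100% of nonzero values, within 0.01 of a read, and these reads served for depth and for voom. The table includes 277 features that the authors assembled. Values were compared as log2(FPKM + 0.5) in limma 3.58.1 (R 4.3.3, lmFit, and eBayes with trend), two-sided, for genes with a mean of at least 0.5 FPKM, without covariates, with Benjamini-Hochberg adjustment over all 15414 genes. The code was tested on simulated data. Gene coordinates are the deposited ones.

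The members and lists were chosen with earlier results of these data known. All members are named. From the pathway list the text names ligands, receptors, complex and protease genes, and in each arm the gene with the largest fold change at a mean of at least 1 FPKM. Grb10, Airn and the marker genes with values were named after their values were seen. For members with a range over 1 on log2(FPKM + 0.5), the 3 genes nearest in pattern are named. Among members tested only Igfbp1 met this. Igf1 had a range of 0.86 on this scale, although its highest pool was 2.86 times its lowest in FPKM. The thick limb, injured tubule, podocyte and smooth muscle lists, also examined, had median log2 fold changes of 0.055, -0.20, 0.095 and 0.093, which ranged from -0.17 to 0.33, -0.33 to 0.12, 0.096 to 0.25 and -0.18 to 0.26 with 1 pool left out.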

Additional observations from a re-analysis of the deposited data

How the results depend on the processing

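The count of genes with an adjusted p under 0.05 stayed at 0 under all 14 alternatives (other pseudocounts, filters, scalings, voom, the replicate block and each pool left out), and 687 to 1720 were under 0.05 before adjustment. The fit with a replicate block gave 0 genes, and 932 before adjustment. Deviations of pools with the same number did not correlate over all genes (r = -0.0017). An effect shared by same-numbered pools on part of the genes was not tested. Igfbp1 was higher in the first pool of each group, and with the block its SE was 0.23 against 0.48 in the main fit. The limma unadjusted p of Igfbp1 was then 0.082 against 0.306, with an adjusted p of 0.801. The adjusted p ranged from 0.499 to 0.992 for Igf1 and from 0.462 to 0.992 for Igfbp5, which stayed lower in KO in every fit that tested them. The unadjusted p of Igfbp5 was also above 0.05 with protein-coding genes only (0.0516), where that of Igf1 was 0.0406, at a filter of 1 FPKM (0.0538) and with any 1 pool left out (0.059 to 0.157). At a filter of 1 FPKM Igf1 and Igfbp6 were not tested.

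Directions turned when 1 pool was left out, which leaves a lone pool assumed to vary like the others. Without the second KO pool the log2 fold change was 0.15 for Igf1r, 0.071 for Igfbp3 and 0.072 for Igfbp7, and the members' median was 0.072. Without the first KO pool it was -0.098 for Igfbp1, and without the first WT pool -0.11 for Igfbp6. Over the 4 pools left out in turn, the range was -0.20 to 0.15 for Igf1r, -0.098 to 1.20 for Igfbp1, -0.37 to 0.071 for Igfbp3, -0.11 to 0.33 for Igfbp6, -0.24 to 0.072 for Igfbp7 and -0.20 to 0.072 for the members' median. Rescaling to reads on genes moved the median of all genes to -0.057 and that of the pathway list to -0.036, since it shifts every gene. The number of members with groups that did not overlap was 2 to 4 over the 10 alternatives that kept every pool. Over these the log2 fold change ran from -0.37 to -0.22 for Igfbp4, -0.24 to -0.15 for Igfbp3 and -0.16 to -0.086 for Igfbp7. It ran from -0.097 to -0.025 for Igf1r, 0.12 to 0.19 for Igf2r and 0.061 to 0.17 for Igfbp6. The depth limits Igfbp2 (2 to 5 reads a pool) and Igfbp6 (12 to 21).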
